A study of Homo sapiens with 3 samples.

Results

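The regions described here are the MEIS1 ChIP-seq peaks whose summit lay in a tRNA gene, a small nuclear or ribosomal RNA sequence, a satellite, a simple repeat or a low-complexity stretch. They were chosen by the repeat class in the deposited annotation, whatever the height of the peak, and numbered 320 of 8015 peaks. MEIS1 is a homeodomain transcription factor that binds DNA together with HOX proteins, and the comparison asks where it was found on chromatin with and without HOXB13. Both lines came from CWR22Rv1, an established human prostate carcinoma cell line derived from a xenograft that relapsed after castration. In LV-MEIS1 cells, which kept their own HOXB13, MEIS1 was added with a lentiviral vector. In HOXB13ko-LV-MEIS1 cells, HOXB13 had been knocked out by CRISPR in cells that carry an integrated Cas9 gene, knockout clones had been recombined into a pool, and MEIS1 was then added with the same vector. The methods describe Cas9 integration and clone selection for the knockout line, so their effects and that of the loss of HOXB13 cannot be told apart. The same MEIS1 antibody was used in both lines. The LV-MEIS1 list held 59 such peaks of 5968 and the HOXB13ko-LV-MEIS1 list 261 of 2047. The LV-MEIS1 list used here is shorter than the one the study describes, and peaks outside it were not analysed here, which bears on each LV-MEIS1 share, overlap and absence below.

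Each list was called on pooled reads, from 3 immunoprecipitations with 202428594 tags in LV-MEIS1 cells and from 2 with 105763683 tags in HOXB13ko-LV-MEIS1 cells. The headers of both lists name the same input, labelled as untreated CWR22Rv1 DNA, with 39102495 tags, whereas the study's methods describe input specific to each line. There is 1 list per line and therefore no replicate error. No difference between the lines was tested, and the 95% Wilson intervals given here cover counting error only. Because the pools differ in depth, fold enrichment (the reads at a summit over the local background) is given as a value and as its percentile within its own list, from 0 for the weakest to 100 for the strongest peak. Repeats have near-identical copies, and reads that fit several copies equally well can be placed at any of them, so the assignment to a particular copy is uncertain. Of these peaks, 3 in the LV-MEIS1 list and 29 in the HOXB13ko-LV-MEIS1 list lay on alternate or unplaced sequences of the hg38 assembly.

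Transfer RNA genes, 5S rRNA genes and some other small RNA genes are transcribed by RNA polymerase III. In tRNA genes the promoter lies inside the gene, as an A box in the first part and a B box in the part that encodes the T loop, where the factor TFIIIC binds. The U1 and other spliceosomal snRNA genes and the U3 snoRNA genes are transcribed by RNA polymerase II from compact promoters, while satellites and the TTAGGG repeats of telomeres form tandem arrays at centromeres, on acrocentric chromosomes and at chromosome ends.

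The sequences that the results turn on are printed 5′ to 3′ along the gene, from hg38, with tRNA genes placed by RefSeq. In the tRNA loci, capitals mark the 5-base core that MEIS proteins recognise (TGACA, or TGTCA on the other strand), the composite TGATTGACA word of PBX and MEIS proteins (TGTCAATCA on the other strand) and the B box word GTTCNANNC. Each tRNA window starts 40 bases before the gene and ends 50 bases after it. The first group shows 2 tRNA-Asn loci of chromosome 1 with a peak in both lists (TRN-GTT24-1, chr1:146370061-146370224, plus strand, and TRN-GTT3-1, chr1:144419227-144419390, plus strand) and 1 with a peak only in HOXB13ko-LV-MEIS1 cells (TRN-GTT2-3, chr10:22229459-22229622, minus strand).
TRN-GTT24-1: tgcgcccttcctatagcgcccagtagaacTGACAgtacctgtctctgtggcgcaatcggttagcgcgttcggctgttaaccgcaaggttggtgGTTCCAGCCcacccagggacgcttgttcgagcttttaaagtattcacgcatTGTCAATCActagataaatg
TRN-GTT3-1: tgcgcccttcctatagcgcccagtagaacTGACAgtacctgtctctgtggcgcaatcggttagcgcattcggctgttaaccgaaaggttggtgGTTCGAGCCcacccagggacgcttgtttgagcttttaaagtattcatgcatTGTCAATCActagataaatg
TRN-GTT2-3: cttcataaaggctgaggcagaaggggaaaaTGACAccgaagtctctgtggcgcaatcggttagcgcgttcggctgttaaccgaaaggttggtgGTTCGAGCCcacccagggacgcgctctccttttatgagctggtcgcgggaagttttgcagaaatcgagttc
The second group shows other tRNA loci with a peak in both lists, for aspartate (TRD-GTC1-1, chr12:98503463-98503624, plus strand), tryptophan (TRW-CCA3-2, chr6:26331394-26331555, minus strand) and selenocysteine (TRU-TCA1-1, chr19:45478551-45478727, minus strand).
TRD-GTC1-1: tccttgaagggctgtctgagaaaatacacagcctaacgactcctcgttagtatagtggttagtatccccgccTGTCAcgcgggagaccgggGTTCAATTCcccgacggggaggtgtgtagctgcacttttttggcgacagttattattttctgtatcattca
TRW-CCA3-2: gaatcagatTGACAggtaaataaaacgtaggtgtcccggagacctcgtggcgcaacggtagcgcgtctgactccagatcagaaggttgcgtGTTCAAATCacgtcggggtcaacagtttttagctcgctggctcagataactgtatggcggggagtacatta
TRU-TCA1-1: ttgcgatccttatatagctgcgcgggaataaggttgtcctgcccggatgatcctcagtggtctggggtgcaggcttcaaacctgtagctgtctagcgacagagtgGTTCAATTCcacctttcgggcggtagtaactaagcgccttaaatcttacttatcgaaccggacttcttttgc
The third group shows the tRNA loci with the highest fold enrichment among peaks annotated as tRNA, found in HOXB13ko-LV-MEIS1 cells only and lying on a RefSeq gene (TRP-CGG1-1, chr1:167714685-167714846, plus strand, and TRR-CCT3-1, chr16:3152860-3153022, plus strand), which hold the B box word and no TGACA.
TRP-CGG1-1: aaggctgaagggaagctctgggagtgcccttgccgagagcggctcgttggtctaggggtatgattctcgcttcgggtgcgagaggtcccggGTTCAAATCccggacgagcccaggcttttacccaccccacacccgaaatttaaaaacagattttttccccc
TRR-CCT3-1: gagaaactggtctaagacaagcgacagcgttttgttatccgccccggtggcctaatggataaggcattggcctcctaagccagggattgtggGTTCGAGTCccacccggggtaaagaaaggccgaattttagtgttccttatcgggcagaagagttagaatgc

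tRNA peaks made up 4.98% of the HOXB13ko-LV-MEIS1 list (102 peaks, 95% interval 4.12% to 6.01%) and 0.134% of the LV-MEIS1 list (8 peaks, 0.0679% to 0.264%). Satellites followed the same order, with 57 peaks or 2.78% (2.16% to 3.59%) without HOXB13 and 3 peaks or 0.0503% (0.0171% to 0.148%) with it. snRNA sequences held 12 peaks (0.586%, 0.336% to 1.02%) without HOXB13 and 1 peak (0.0168%, 0.00296% to 0.0949%) with it. For these 3 classes the intervals of the lists did not overlap. The LV-MEIS1 list was the longer and was called at the greater depth, and the effect of either on these shares was not tested. Simple repeats held 84 peaks (4.10%, 3.33% to 5.05%) and 43 peaks (0.721%, 0.535% to 0.969%). rRNA sequences held 4 and 1 peaks and low-complexity stretches 2 and 3 peaks in HOXB13ko-LV-MEIS1 and LV-MEIS1 cells, and here the intervals overlapped. No summit lay in the scRNA, srpRNA or RNA classes in either list, which allows a share of up to 0.187% without HOXB13 and 0.0643% with it.

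**Figure D1:**
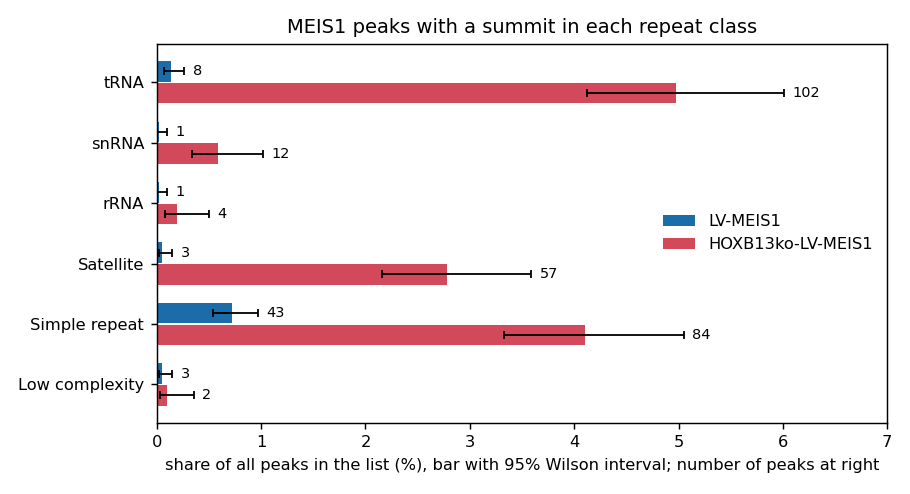
Share of each peak list (percent, horizontal axis) in 6 repeat classes, for LV-MEIS1 (blue) and HOXB13ko-LV-MEIS1 cells (red). Bars are shares, whiskers 95% Wilson intervals and the numbers at right peak counts, with 102 against 8 tRNA peaks and 57 against 3 satellite peaks.

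The share of sites held in common was below the background in HOXB13ko-LV-MEIS1 cells and above it in LV-MEIS1 cells, and it varied with the class. Of the 261 peaks in HOXB13ko-LV-MEIS1 cells, 31 (11.9%, 8.49% to 16.4%) overlapped an LV-MEIS1 peak by at least 1 bp, where 22.3% of the whole list did and 77.7% did not. Of the 59 peaks in LV-MEIS1 cells, 24 (40.7%, 29.1% to 53.4%) overlapped a HOXB13ko-LV-MEIS1 peak, where 7.66% of the whole list did and 92.3% did not. All 8 tRNA peaks of LV-MEIS1 cells had a partner, and so did 14 of the 102 in HOXB13ko-LV-MEIS1 cells (13.7%, 8.36% to 21.7%). The remaining 88 tRNA peaks were thus in the HOXB13ko-LV-MEIS1 list alone. Satellites and snRNA sequences each contributed 1 overlapping peak in HOXB13ko-LV-MEIS1 cells, of 57 and of 12. Telomeric repeats stood at the other end, with all 13 peaks of LV-MEIS1 cells and 13 of 23 peaks of HOXB13ko-LV-MEIS1 cells in common (56.5%). No other simple repeat of LV-MEIS1 cells overlapped a peak of the other list.

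The tRNA peaks of HOXB13ko-LV-MEIS1 cells were among the stronger peaks of their list. Their median fold enrichment was 7.56 (range 2.93 to 15.0), at the 78.5th percentile, with 86 of 102 above the list's median and 28 of 102 in its top 10%. In LV-MEIS1 cells the 8 tRNA peaks ranged from 5.48 to 9.67 with a median percentile of 62.3 and none in the top 10%. The highest value without HOXB13 was at a proline tRNA gene upstream of MPZL1 (15.0, chr1:167714531-167714966), followed by aspartate tRNA genes in an intron of LINC02453 (13.4, chr12:98503335-98503901) and near MIR5188 (13.4, chr12:124939273-124940405). With HOXB13 present the highest were asparagine tRNA genes of chromosome 1, at 9.67 (chr1:146369921-146370354) and 8.63 (chr1:144567339-144567749), and a copy on an alternate chromosome 1 sequence (9.38). The input was near its genome-wide level at most tRNA peaks, the lowest value the caller allows. The median background at these summits was 1.00 times the genome-wide level in HOXB13ko-LV-MEIS1 cells (above 2 times at 10 of 102 peaks, maximum 5.52, at a leucine tRNA gene near HSPA6) and 1.04 times in LV-MEIS1 cells.

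The tRNA peaks of HOXB13ko-LV-MEIS1 cells spanned 22 tRNA types, with glycine (10 peaks), asparagine (9), valine (9) and arginine (8) most frequent, and lay on 16 sequences. The large tRNA gene cluster of chromosome 6 held 32 of them, between summits at 26286559 and 28474604, chromosome 1 held 23 and chromosome 17 held 9. They lay outside annotated genes in 93 of 102 cases. In LV-MEIS1 cells there were 3 types only, namely 6 asparagine peaks, 1 aspartate peak and 1 selenocysteine peak.

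The repeat class depends on the base at which the summit falls, and a summit that shifts by a short distance leaves the tRNA class. Peaks were therefore also counted on the 443 tRNA genes of RefSeq on chromosomes 1 to 22, X and Y, an alternative added after the data were seen. A HOXB13ko-LV-MEIS1 peak covered 189 of these genes (42.7%, 38.1% to 47.3%) and an LV-MEIS1 peak 20 (4.51%, 2.94% to 6.87%). Of all 14274 GENCODE genes of 500 bases or fewer, 0.715% had a HOXB13ko-LV-MEIS1 peak and 0.694% an LV-MEIS1 peak, counted within the wider distance of 200 bp. All 20 were also covered in HOXB13ko-LV-MEIS1 cells, so that in these lists no tRNA gene had a peak only with HOXB13 present. The 189 genes were covered by 176 peaks, 8.60% of the list, of which 99 were annotated as tRNA and 77 otherwise, mostly as intergenic (33) or promoter (33). Those 77 had a median fold enrichment of 7.19, close to the 7.56 of the 99.

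By tRNA type, HOXB13ko-LV-MEIS1 peaks covered 7 of 8 initiator methionine genes, 5 of 7 tryptophan genes, 13 of 20 threonine genes, 19 of 30 valine genes and 12 of 20 proline genes. Elongator methionine genes (1 of 11), cysteine genes (3 of 29) and alanine genes (7 of 38) were at the low end. With few genes per type most intervals were wide, as for tryptophan (35.9% to 91.8%), but that for cysteine (3.58% to 26.4%) lay below that for valine (45.5% to 78.1%). These intervals treat the genes of a type as independent. Coverage also differed between chromosomes, and type and position were not separated. The 3 covered cysteine genes, for example, were all on chromosome 17. None of the 22 tRNA genes of chromosome 7 and 39 of the 155 genes of chromosome 6 had a peak without HOXB13, against 28 of 33 on chromosome 17 and 15 of 18 on chromosome 5. LV-MEIS1 peaks covered 8 of 26 asparagine genes and at most 2 genes of any other type.

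**Figure D2:**
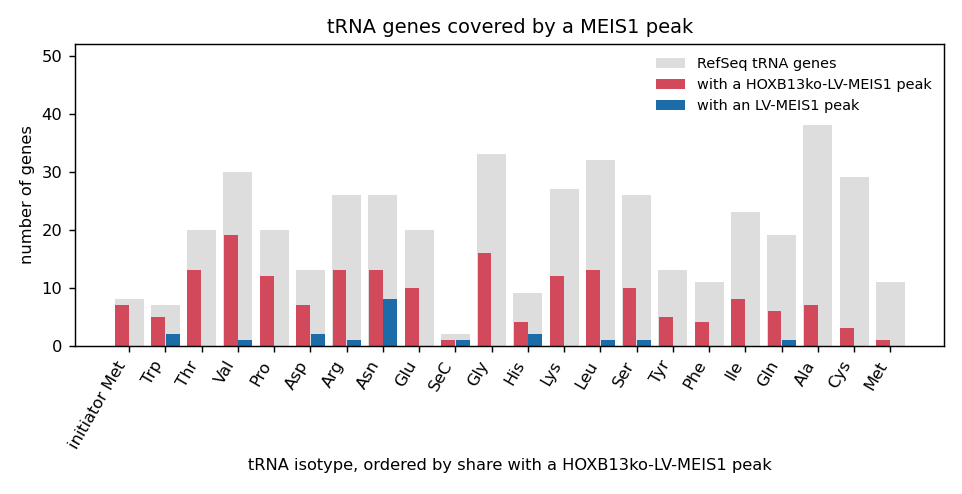
Number of RefSeq tRNA genes (vertical axis) per tRNA type (horizontal axis), as all genes (grey), genes with a HOXB13ko-LV-MEIS1 peak (red) and genes with an LV-MEIS1 peak (blue). All 22 types have covered genes without HOXB13, while with HOXB13 asparagine has 8 genes and no other type more than 2.

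By the way the peaks were chosen, their summits lay in a tRNA sequence, so that the following positions describe where in the gene they lay. The word GTTCGANTC, a strict form of the B box searched on both strands within 50 bp of the summit, was found at 33 of 102 tRNA peaks of HOXB13ko-LV-MEIS1 cells (32.4%, 24.1% to 41.9%), at 6 of 204 windows centred 500 bp to either side and at 2.83% of all peaks in the list. It misses the T loops of several tRNA types. The looser GTTCNANNC, added after the data were seen, was found at 84 of 102 (82.4%) against 16 of 204 flanking windows (7.84%) and 9.04% of all peaks, which follows from the choice of peaks in tRNA genes and is no separate finding. Within 100 bp of the summit it was present at 96 of the 102 peaks, and there the summit lay at a median of -18.5 bp from the word's centre, where negative values are on the 5′ side (quartiles -31.2 and -8.75 bp, extremes -62 and 17 bp). The summit was on the 5′ side of the word's centre at 83 of 96 peaks, and 5′ of the whole word at 77. All 8 LV-MEIS1 peaks held the looser word within 100 bp, and 7 of their summits were 5′ of it. In TRP-CGG1-1 and TRR-CCT3-1, shown above, the summits were at gene bases 1 and 4 and the B box word began at bases 52 and 53.

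**Figure D3:**
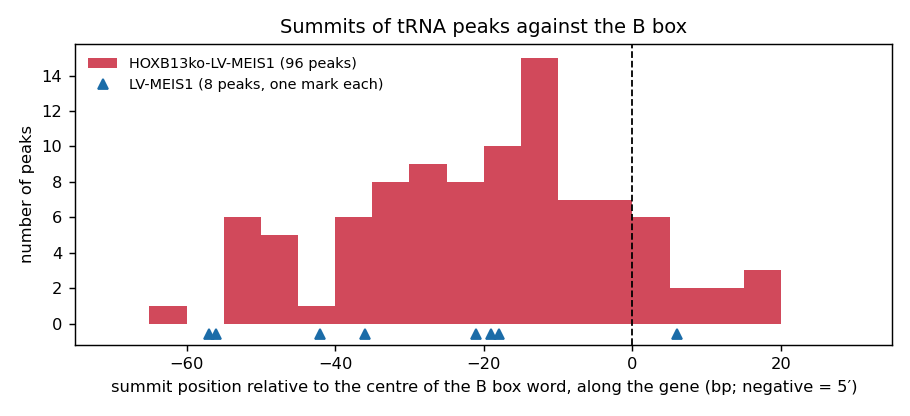
Distance in bp from the centre of the B box word GTTCNANNC to the summit along the gene (horizontal axis, negative towards the 5′ end) for 96 tRNA peaks of HOXB13ko-LV-MEIS1 cells (red histogram of peak numbers) and 8 of LV-MEIS1 cells (blue triangles). Most summits, 83 of 96 and 7 of 8, lie on the 5′ side of the centre.

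The MEIS core word was found at different shares of the tRNA peaks in the lists. TGACA lay within 50 bp of the summit at 7 of 8 tRNA peaks of LV-MEIS1 cells (87.5%, 52.9% to 97.8%) and in 0 of 16 flanking windows, where 56.1% of all LV-MEIS1 peaks held it. These were the 6 asparagine peaks, which are near copies of each other, and the aspartate peak, but not the selenocysteine peak. In windows 1000 bp away the share was 31.2%. The word was also at 9 of the 13 LV-MEIS1 peaks on tRNA genes that were annotated otherwise (69.2%). It was at 13 of 77 such HOXB13ko-LV-MEIS1 peaks (16.9%). In HOXB13ko-LV-MEIS1 cells it lay at 17 of 102 tRNA peaks (16.7%, 10.7% to 25.1%), close to the 28 of 204 flanking windows (13.7%) and to the 16.8% of all peaks of that list, and within 100 bp at 30.4%. Part of these matches belonged to the tRNA sequence itself. All 13 aspartate tRNA genes of RefSeq hold TGACA, and so do 15 of 32 leucine genes but only 32 of all 443 (7.22%). Each of the 5 aspartate peaks accordingly held the word, and 9 of the 88 peaks at types other than asparagine and aspartate did (10.2%, 5.47% to 18.3%). Among the 14 tRNA peaks of HOXB13ko-LV-MEIS1 cells with a partner in LV-MEIS1 cells the word was at 6 (42.9%, 21.4% to 67.4%), and among the 88 without at 11 (12.5%, 7.13% to 21.0%). The 14 were chosen by overlap with a list in which 56.1% of all peaks held the word. Among them are tRNA-Asp peaks, which hold the word in the gene, and tRNA-Asn copies. The difference between these shares is therefore no separate finding on shared tRNA peaks.

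The 17 pairs of overlapping peaks in which at least 1 summit was in a tRNA sequence comprised 8 at asparagine genes and 9 at others. Summits were a median of 65 bp apart (6 to 457 bp), so that only 5 pairs were annotated as tRNA on both sides. The word lay within 50 bp of the LV-MEIS1 summit in 13 of 17 pairs and of the HOXB13ko-LV-MEIS1 summit in 9. At TRD-GTC1-1, where TGTCA starts at gene base 33, the LV-MEIS1 summit was at base 37 (fold enrichment 6.16, 49.7th percentile) and the HOXB13ko-LV-MEIS1 summit at base 51 (13.4, 98.4th percentile), next to the B box word at base 52. At TRW-CCA3-2 the LV-MEIS1 summit was 29 bases before the gene, on a TGACA that starts 31 bases before it (8.34, 80.1st percentile), and the HOXB13ko-LV-MEIS1 summit was at gene base 9 (6.33, 61.3rd percentile). TRU-TCA1-1, near FOSB, holds no TGACA in the window shown, and its summits were at base 76 with HOXB13 (5.86) and base 8 without it (8.70).

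Asparagine was the most frequent type among the tRNA sites of LV-MEIS1 cells, with 6 of the 8 annotated peaks and 8 of the 20 covered genes. Of the 21 asparagine genes that carry the B box word, 8 had a peak in both lists, 5 only in HOXB13ko-LV-MEIS1 cells and 8 in neither. All 8 shared genes were on chromosome 1. Each of the 8 had TGATTGACA downstream, with 30 bases between it and the gene, and 6 also had TGACA starting 11 bases before the gene. Among the 5 genes with a peak only without HOXB13, 0 had TGATTGACA downstream and 3 TGACA upstream, and among the 8 without a peak 2 and 3 did. The word TGATTGACA lay within 50 bp of the summit at 1.21% of all LV-MEIS1 and 0.635% of all HOXB13ko-LV-MEIS1 peaks. It lay at none of the summits annotated as tRNA, but summits at tRNA genes that were annotated otherwise are not in that count. TRN-GTT2-7, for example, has the word downstream and no TGACA upstream. There the LV-MEIS1 summit (chr1:145287874) was annotated to no repeat, and the nearest TGACA was centred at -2 bp from it. At TRN-GTT3-1 the LV-MEIS1 summit was 8 bases before the gene (7.92), over the upstream TGACA, and the HOXB13ko-LV-MEIS1 summit at gene base 45 (8.87). At TRN-GTT24-1 both summits were inside the gene, at base 40 (9.67) and base 19 (8.90).

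These chromosome 1 loci are copies of each other. Windows of 164 bases over the 8 shared genes had a median identity of 87.2% (50.6% to 99.4%) when compared base by base without gaps. Without TRN-GTT25-1, whose gene is 1 base longer and shifts the comparison, the lowest identity was 74.4%. The nearest gene was a U1 gene, at 6650 to 6735 bp, for 2 of the 6 asparagine peaks in LV-MEIS1 cells and 3 of the 9 in HOXB13ko-LV-MEIS1 cells, 1 locus being in both. Counted outside chromosome 1, 2 LV-MEIS1 tRNA peaks were left, both with a partner.

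**Figure D4:**
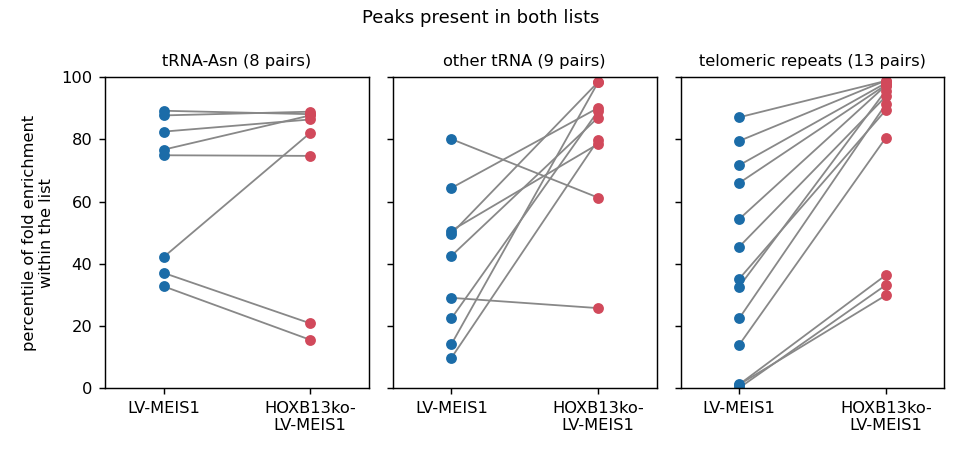
Percentile of fold enrichment within each list (vertical axis, 0 to 100) for peaks that overlap between LV-MEIS1 (blue) and HOXB13ko-LV-MEIS1 cells (red), joined by a line, at asparagine tRNA genes (8 pairs), other tRNA genes (9) and telomeric repeats (13). The percentile is higher without HOXB13 in 4 of 8, 7 of 9 and 13 of 13 pairs.

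The percentile within the list was compared over the pairs, with few pairs in each group. The percentile was higher in HOXB13ko-LV-MEIS1 than in LV-MEIS1 cells in 4 of 8 asparagine pairs and in 7 of 9 other tRNA pairs, whereas it was higher in 149 of all 457 overlapping pairs (32.6%). Median percentiles at the other tRNA pairs were 42.6 with HOXB13 and 87.0 without it, against 80.1 and 54.9 over all pairs. Only 2 of these 9 pairs were annotated as tRNA on both sides, and summits were up to 457 bp apart. Near MIR5188 the LV-MEIS1 summit lay in another repeat (MIRb), 394 bp from the tRNA summit. The LV-MEIS1 percentile of such a pair is thus not always that of the tRNA site.

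snRNA peaks of HOXB13ko-LV-MEIS1 cells were 11 at U1 and 1 at U3 sequences, with a median fold enrichment of 7.58 (5.29 to 14.2) and a median percentile of 78.6. Background was at the genome-wide level (median 1.00 times, maximum 2.07). GENCODE lists a small RNA gene at 9 of the 12, and there the summit was 55 to 147 bp (median 119 bp) downstream of the gene's start. The strongest were RNVU1-27 (14.2, chr1:148522529-148523015) and RNVU1-28 (13.8, chr1:144560305-144560891), variant U1 genes, followed by RNVU1-2A (8.61). RNVU1-27 was also the only snRNA peak of LV-MEIS1 cells, with its summit 1 bp away but at the 9.43rd percentile of that list (4.34) and at the 99.0th of the other. The sequence around its summit (chr1:148522651-148522811, plus strand, gene bases in capitals, summit in the middle) shows how near the summit lies to the gene's 3′ end.
RNVU1-27: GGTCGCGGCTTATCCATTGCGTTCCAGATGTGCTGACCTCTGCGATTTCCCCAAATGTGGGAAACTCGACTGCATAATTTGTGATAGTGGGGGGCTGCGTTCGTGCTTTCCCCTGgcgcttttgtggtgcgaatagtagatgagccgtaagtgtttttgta

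Peaks at the other genes of these systems mostly carried promoter or gene-end annotations and so are not counted above. A list of 24 RNA polymerase II genes held snRNA and U3 genes and the snoRNA genes SNORD118 and SNORD13. Of these, 22 had a HOXB13ko-LV-MEIS1 peak within 200 bp, 15 an LV-MEIS1 peak and 14 both. Of all 14274 GENCODE genes of 500 bases or fewer, 0.715% had a HOXB13ko-LV-MEIS1 peak and 0.694% an LV-MEIS1 peak. SNORD13 was the only listed gene with a peak in LV-MEIS1 cells alone (5.21). Counting only summits inside the gene gave 13 and 7. Without HOXB13 the peaks were at a median percentile of 93.7 with summits 71 to 280 bp downstream of the gene's start. Among the 24, 5 U1 genes had a peak in both lists. There the LV-MEIS1 summit was upstream of the start by 261 to 288 bp. The HOXB13ko-LV-MEIS1 summit was downstream of it by 124 to 176 bp. RNVU1-27, which is not among the 24, differed. Both its summits were downstream of the start, by 129 bp with HOXB13 and 130 bp without it. Of 19 further small RNA genes of RNA polymerase III found in the annotation, 9 had a HOXB13ko-LV-MEIS1 peak, 4 an LV-MEIS1 peak and 3 both. RN7SK, whose RNA holds the elongation factor P-TEFb inactive, had both (6.54 without and 6.60 with HOXB13), as did RNU6ATAC (4.91 and 5.81), the minor spliceosome's U6, and RMRP (5.29 and 6.26), the RNA of RNase MRP. VTRNA1-3 (8.70), VTRNA1-1 (6.71), RN7SL1 (6.04), RNU6-2 (5.76), RN7SL2 (5.29) and RNY1 (5.11) had a peak only without HOXB13. RPPH1, the RNA of RNase P, had one only with HOXB13 (10.5). Of 29 genes for RNA polymerase III subunits and factors, 5 had a HOXB13ko-LV-MEIS1 peak within 200 bp of the start (POLR3E, GTF3C3, GTF3C5, BRF2 and SNAPC4), 2 an LV-MEIS1 peak (POLR3B and TBP) and 0 both, where 2.07% and 4.8% of all 20046 protein-coding genes did.

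rRNA peaks were few. Without HOXB13 a 5S sequence near PEX5L, annotated as a 5S pseudogene, stood at 5.95 with background at 1.00 times the genome-wide level, whereas 2 LSU and 1 SSU fragments inside introns stood at 2.17 to 3.32 with background of 3.45 to 10.4 times. The LV-MEIS1 peak was an LSU fragment near WNT11 (5.56, background 1.00 times).

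Satellite peaks of HOXB13ko-LV-MEIS1 cells had low fold enrichment, with a median of 3.93 (1.81 to 14.0) at a median percentile of 11.1, but stood at a median percentile of 56.6 by pileup. Many lay where the input itself was high. The most frequent were ACRO1, a satellite of acrocentric chromosomes (17 peaks), TAR1, a telomere-associated repeat (17), and ALR/Alpha, the alpha satellite of centromeres (14). All 17 ACRO1 peaks had background above 2 times the genome-wide level (median 6.59, maximum 17.3), their median fold enrichment was 2.38, and 9 lay on sequences other than the main chromosomes. At ALR/Alpha the median background was 1.59 times and the median fold enrichment 4.53, and at TAR1 1.45 times and 4.83. The part of copy number or mapping in these peaks was not tested. REP522 differed, with 4 peaks of 6.05 to 14.0 and background of 1.00 to 1.59 times. The strongest satellite peaks were REP522 near ZNF33BP1 (14.0, chr10:37726353-37726786), TAR1 near PLPP2 (8.50, chr19:247060-247432) and TAR1 near LINC00266-1 (7.66, chr20:64285807-64286204).

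LV-MEIS1 cells had 3 satellite peaks, at SST1 near ZNF273 (10.5, 92.6th percentile), BSR/Beta near LINC01566 (5.47) and ALR/Alpha (3.60). The gene nearest to the ALR/Alpha peak, EMBP1, started 2824538 bp away. The ALR/Alpha peak was the only one shared, at the 2.63rd percentile with HOXB13 and the 30.2nd without it. TGACA lay at 2 of the 57 satellite summits of HOXB13ko-LV-MEIS1 cells (3.51%, 0.968% to 11.9%) and at 2 of the 3 of LV-MEIS1 cells.

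**Figure D5:**
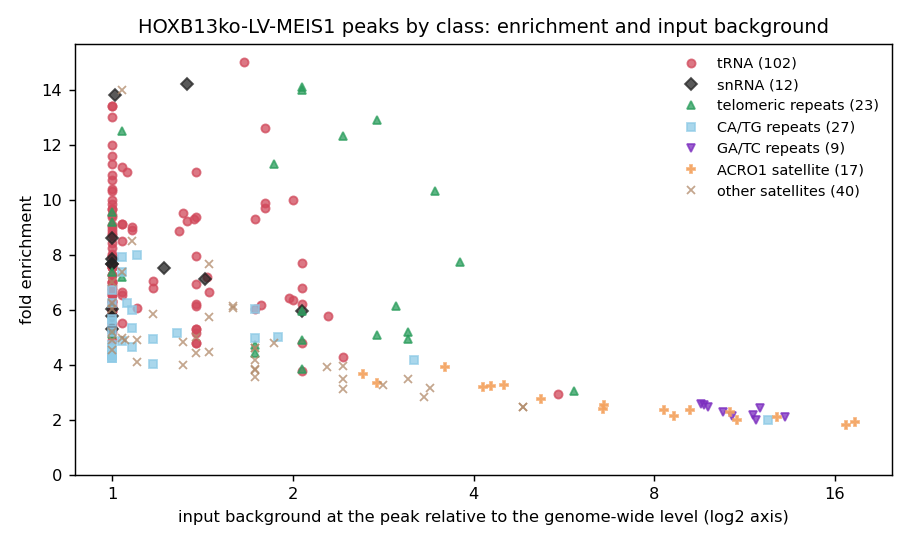
Fold enrichment (vertical axis) against the input background at the peak relative to the genome-wide level (horizontal axis, log2 scale) for 230 of the 261 peaks of HOXB13ko-LV-MEIS1 cells, by class (rRNA, low-complexity and the other simple repeats not drawn). Most tRNA and snRNA peaks lie at a background between 1 and 2, while GA/TC repeats (9.56 to 13.2) and ACRO1 satellites (2.62 to 17.3) lie at high background and low fold enrichment.

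Among the simple repeats, the telomeric unit TTAGGG was the best represented in LV-MEIS1 cells (13 of 43 peaks) and second to CA/TG in HOXB13ko-LV-MEIS1 cells (23 of 84). On the main chromosomes, 10 LV-MEIS1 peaks lay at 10 chromosome ends and 17 HOXB13ko-LV-MEIS1 peaks at 17 ends. The assembly has 10000 unknown bases at each of these ends, and the summits were 51 to 346 bp (with HOXB13) and 47 to 521 bp (without) inside the first known base. Orientation followed the end, with the C-rich strand at each of the 4 and 7 chromosome starts and the G-rich strand at each of the 6 and 10 far ends. A further 2 and 5 peaks lay farther from a chromosome end, but no more than 110194 bp (with HOXB13) and 222396 bp (without) from it. Those near DUX4 on chromosome 4 and PARD6G on chromosome 18 were in both lists. Those near PLCXD1 on X and Y, found without HOXB13 only, may not be independent.

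All 13 telomeric pairs stood higher in the HOXB13ko-LV-MEIS1 list. Their median percentile was 35.2 with HOXB13 and 93.8 without it, with summits a median of 5 bp apart. The far ends of chromosomes X and Y, which share sequence and so are not independent, had fold enrichments of 8.26 and 9.31 with HOXB13 (79.5th and 87.1st percentile) and 14.1 and 14.0 without it (98.9th and 98.8th). The start of chromosome 5 had 7.47 and 12.9 (71.7th and 98.1st), and the far end of chromosome 13 had 7.06 and 12.5 (66.0th and 97.5th). Lowest was the start of chromosome 1, with 2.76 and 5.08 (0.159th and 33.2nd). The input was above the genome-wide level here too, at a median of 2.76 times in LV-MEIS1 and 2.07 times in HOXB13ko-LV-MEIS1 cells. The part of reads from unassembled telomeric DNA was not tested.

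CA/TG repeats were in the HOXB13ko-LV-MEIS1 list with 27 peaks and in the LV-MEIS1 list with 0, and CAC/GTG repeats with 9 and 0, where 0 of 5968 allows up to 0.0643%. The CA/TG peaks had a median fold enrichment of 5.00 (1.99 to 7.98) at the 31.7th percentile and a background of 1.04 times. Several lay side by side, with 3 peaks in an intron of LGR6 (7.98, 7.37 and 4.64), 3 near LINC00887 (6.23, 4.72 and 4.62) and 2 near KCNH2 (4.34 each), and such neighbours are not independent sites. The strongest, in LGR6 (chr1:202205222-202205604), is shown by the 101 bases around its summit (chr1:202205381-202205481, plus strand), a CA-rich stretch without the MEIS core word.
LGR6 intron: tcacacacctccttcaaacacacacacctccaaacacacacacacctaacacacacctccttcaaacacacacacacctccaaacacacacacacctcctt
A (TG)n peak in an intron annotated to DNAJB8-AS1 (chr3:128382359-128382570, 6.26, 60.4th percentile) was the only one of the 27 to overlap an LV-MEIS1 peak, which was annotated to no repeat and stood at 13.0 (97.7th percentile).

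GA/TC repeats occurred in both lists, at different places. The 9 HOXB13ko-LV-MEIS1 peaks lay on chromosome 21 and 2 unlocalised or unplaced sequences, by their nearest genes (MIR6724, RNA28SN5 and RNA5-8SN5) in or beside ribosomal DNA, with background of 9.56 to 13.2 times the genome-wide level and fold enrichment of 1.98 to 2.57. The 11 LV-MEIS1 peaks were spread over the genome, with background of 1.00 to 2.42 times and fold enrichment of 4.14 to 7.23, and 0 overlapped a peak of the other list. LV-MEIS1 cells had 19 peaks at other units, led by (TGTC)n in ATXN7 (10.4), (AT)n 376516 bp from MIR4454 (9.96) and (TTGA)n near ME3 (9.48). TGACA lay at 8 of these 19 summits (42.1%, 23.1% to 63.7%) and in 13 of 38 flanking windows (34.2%), and at 0 of 16 in HOXB13ko-LV-MEIS1 cells (up to 19.4%). Without HOXB13 the other units were led by (GTGCTGT)n near ODF1 (10.5) and (CTACTA)n on chromosome 2 (10.3), whose nearest gene was the distant LINC01249.

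Low-complexity peaks included 1 site in both lists, a G-rich stretch in an intron of GABPB2 (chr1:151071074-151071301), with fold enrichment of 4.49 at the 11.6th percentile with HOXB13 and 4.93 at the 29.7th without it. The others were a G-rich stretch near DUX4 on chromosome 10 (7.55) without HOXB13, and a G-rich stretch near BTBD2 (6.55) and a GA-rich stretch near JOSD2 (5.02) with it.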

How the data were processed

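MEIS1 ChIP-seq was analysed in LV-MEIS1 and HOXB13ko-LV-MEIS1 cells, with 1 peak list each. Per the study's methods and the submitters' processing notes, the authors trimmed reads (Trimmomatic 0.38), removed duplicates (Picard 2.18.10), aligned to hg38 with Bowtie2, called peaks on pooled immunoprecipitations against input with MACS2 2.1.2 at a q-value of 0.01 with reads extended to 200 bp, and annotated summits with HOMER 4.9.1. The deposited columns hold the pileup signal at the summit, the fold enrichment ratio, and −log10 p- and q-values. The annotation tables deposited by the authors add the repeat name, class and family and the nearest gene. A gene that a peak is said to be near is this nearest gene, which can lie far away.

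From these, peaks of the 9 classes were selected, and counts, shares, Wilson intervals, percentiles within a list and overlaps were computed with Python 3.11.15, numpy 2.4.6, pandas 2.3.3 and pysam 0.24.0. Background was recovered from pileup and fold enrichment and divided by the genome-wide level (2.90 extended reads per base). Words were searched on both strands within 50 bp of summits and in windows centred 500 bp away. Genes came from GENCODE release 44 and RefSeq (GRCh38). Scripts were tested on simulated peaks. No test between the lines was run, since each has 1 pooled list.

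Named were the 3 peaks of highest fold enrichment per class and list, overlapping pairs, peaks of classes with 10 or fewer peaks, and listed genes with a peak. Members and gene lists were chosen with earlier results of these data known. Peaks of single tRNA types and repeats named beyond this, and the comparison with all short and protein-coding genes, were chosen after values were seen.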

Additional observations from a re-analysis of the deposited data

How the results depend on the processing

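Of 456 recomputed values, 366 stayed within 1.5 times of the main value or within its interval, and 90 did not. Shares were judged by their counting interval and medians by an interval of the median. Among the 257 values that bear on the main results, such as those of tRNA peaks and larger classes, 47 did not stay. Intervals of classes with few peaks are wide, so that few values can leave them. Requiring −log10 q of at least 10 left 24 simple repeats, 8 telomeric repeats and 32 peaks in all in LV-MEIS1 cells, and 8 satellites, 28 simple repeats and 125 peaks in all in HOXB13ko-LV-MEIS1 cells. Fold enrichment of at least 5 left 13 satellites, 41 simple repeats and 163 peaks in HOXB13ko-LV-MEIS1 cells. Without peaks within 20 kb of a chromosome end, 2 and 5 telomeric peaks were left. The overlap at −log10 q of at least 10 was 66.7% for LV-MEIS1 tRNA peaks, 28.6% for HOXB13ko-LV-MEIS1 simple repeats and 0% for snRNA sequences and satellites. It was also 0% for both at a fold enrichment of at least 5 or outside chromosome 1, and for satellites at −log10 q of at least 4. Ranked by pileup in place of fold enrichment, HOXB13ko-LV-MEIS1 satellites, simple repeats and all such peaks stood at median percentiles of 56.6, 50.6 and 60.3.

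TGACA within 100 bp was at 30.4% of tRNA, 7.23% of simple repeat and 17.7% of all such HOXB13ko-LV-MEIS1 summits. TGACAG was at 9.8% of tRNA and 5.36% of all such summits, and TGATTGACA at 0% in every class of both lists. Flanks 1000 bp away held TGACA at 31.2% (LV-MEIS1 tRNA), 21.1% (HOXB13ko-LV-MEIS1 tRNA), 45.8% (snRNA) and 16.6% (all such peaks). The B box words TTCNANNC and GTTCNANNC were at 75% and 75% of LV-MEIS1 and at 90.2% and 82.4% of HOXB13ko-LV-MEIS1 tRNA peaks. Counting summits inside the gene only gave 7 and 13 RNA polymerase II small RNA genes and 1 machinery gene with an LV-MEIS1 peak.

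No paired analysis was possible because each line has 1 pooled list, and for the same reason no replicate was left out. The causes of these shifts were not tested. The effect of depth on which peaks were called was not tested. TGATTGACA, GTTCNANNC, the summit distance to tRNA genes, the view outside chromosome 1 and that without chromosome ends were chosen after seeing the data.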
